A study of Oryza sativa with 12 samples.

Results

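The dehydrin genes described here are RAB21, RAB16B, RAB16C, RAB16D, rab25 and Dhn1, 6 of the 17905 rice genes that the array annotation names. They were chosen as the named dehydrin genes of the RAB group, each read on 1 fixed probe set, and 6 of 6 probe sets passed the filter on dim signals. They were measured on 12 Affymetrix rice arrays from roots and leaves of the F1 hybrid between C bao and Jamaica and of both parental cultivars. The study is on hybrid weakness, in which an F1 plant grows less well than either parent, and on the stress response in such plants. The groups were F1 roots, C bao roots and Jamaica roots, all 7 days old, and F1 leaves, C bao leaves and Jamaica leaves, all 4 weeks old. Each group held 2 arrays. No treatment is given in the labels, and tissue and age cannot be told apart. The labels do not say whether replicates came from separate plants, so p-values measure only the spread between these samples, which may be technical.

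Dehydrins are very hydrophilic proteins of the late embryogenesis abundant (LEA) class that accumulate in maturing seeds and in tissues losing water. They are thought to protect membranes and other proteins when water is scarce. The RAB genes (responsive to abscisic acid) are named for their induction by the hormone abscisic acid (ABA), which plants make under drought, salt and during seed maturation. When ABA binds its receptors, these hold back protein phosphatases, kinases of the SnRK2 family are released, and basic leucine zipper factors switch on genes such as the dehydrins.

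RAB16D, RAB16C, RAB16B and RAB21 lie in that order on chromosome 11 in the RefSeq assembly ASM3414082v1. No annotated gene stands between RAB16D and RAB16C (0) or between RAB16B and RAB21 (0), and 2 stand between RAB16C and RAB16B. The gene rab25 is on chromosome 1 and Dhn1, also listed as LIP9, on chromosome 2. The 4 genes on chromosome 11 belong to 1 family of similar sequences, and whether their probes detect each other's transcripts was not tested. They are therefore not independent measurements.

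Signals are linear MAS5 intensities scaled to the same trimmed mean on each array, and a change is a difference of log2(signal + 16) with the standard error (SE) that limma gave. With 2 arrays per group, precision is limited by their number. The replicate arrays of F1 leaf resembled each other least (r = 0.924 across 42974 probe sets), against 0.944 for Jamaica leaf and 0.966 to 0.968 for the other groups. The tissue labels were checked on marker genes. RBCS, the small subunit of Rubisco, had signals of 21865 to 41505 in leaves and 162 to 412 in roots. CASP1, a protein of the root endodermis, had 1432 to 2558 in roots and 4.3 to 59.6 in leaves. NRT2.3, also on the root list, had 349 to 5094.5 in roots and 10.5 to 44.5 in leaves. The root marker PHT1-2 overlapped, with 1022 to 3413 in roots and 571 to 1241.5 in leaves.

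Among the dehydrin genes, 5 of 6 rose in F1 roots and the sixth, Dhn1, had a high signal in every group. The rises ran from 5.25 to 8.42 on the log2 scale against the mid-parent value, which is the mean of the parental log2 values. In F1 leaves 0 of 6 passed, and the F1 leaf arrays differed from each other by up to 55.9-fold.

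**Figure D1:**
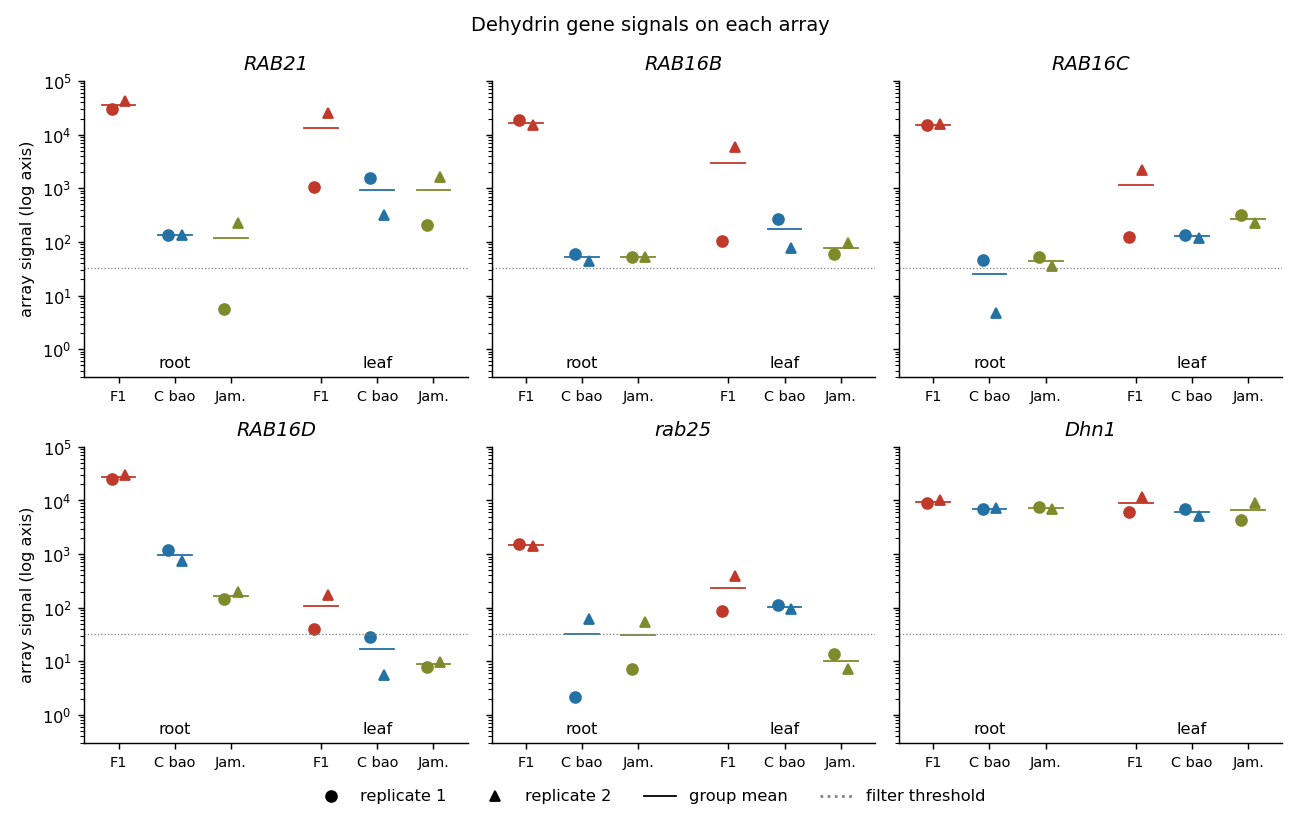
Signals of the 6 dehydrin genes on each array (log axis) in roots and leaves of the F1 hybrid, C bao and Jamaica. Circles are replicate 1, triangles replicate 2, short lines arithmetic group means and the dotted line the filter threshold of 32.2. The F1 roots exceed every parental root array for each gene, and F1 leaf replicate 2 lies above replicate 1.

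RAB21, also known as RAB16A, is known from rice as a gene induced by ABA and by water stress. Its signals were 30328 and 42329.6 in F1 roots, 133 and 137 in C bao roots, and 5.6 and 229.7 in Jamaica roots. The Jamaica root pair was 41.02-fold apart, but even the lower F1 root array was 132 times the highest parental root array. RAB21 rose by 8.42 over the parental mean (SE 1.30, limma adjusted p = 0.0038). Its differences from C bao and from Jamaica were 7.89 (adjusted p = 0.0122) and 8.94 (adjusted p = 0.00578). The Jamaica root spread moved the mid-parent difference to 7.54 without Jamaica root replicate 1 and 9.29 without replicate 2. The difference from Jamaica was 7.19 (adjusted p = 0.0724) and 10.7 without the same arrays. For the mid-parent difference, without F1 root replicates 1 and 2 in turn the adjusted p was 0.0553 and 0.0625, which misses the threshold of 0.05.

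RAB16B and RAB16C, also of the RAB16 family, had signals near the filter threshold in parental roots. RAB16B had 18384 and 15135 in F1 roots, 59.6 and 43.8 in C bao roots, and 51.9 and 52.5 in Jamaica roots. RAB16C had 15135 and 15684 in F1 roots, 45.1 and 4.8 in C bao roots, and 52.8 and 35.0 in Jamaica roots. For both genes the F1 arrays were close to each other and far above every parental root array. The lower F1 array was 254 times the highest parental array for RAB16B and 287 times for RAB16C. RAB16B rose by 7.95 (SE 1.12, adjusted p = 0.00227) and RAB16C by 8.39 (SE 0.844, adjusted p = 0.000322). Since the parental signals were near the threshold of 32.2, the size of these differences depends on the constant added before the logarithm. RAB16C differed by 9.17 with a constant of 1 and by 7.32 with 64, and RAB16B by 8.31 and 7.18. The mid-parent difference of RAB21 also moved, to 8.94 and 7.73.

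RAB16D was above the filter threshold on every root array, in the parents too. It had 24674 and 29959 in F1 roots, 1175 and 734.5 in C bao roots, and 144 and 194 in Jamaica roots. The 3 root groups did not overlap. RAB16D rose by 6.03 over the parental mean (SE 0.460, adjusted p = 6.82e-05), by 4.85 against C bao (adjusted p = 0.000519) and by 7.21 against Jamaica (adjusted p = 2.45e-05). Without any 1 array the mid-parent difference stayed between 5.86 and 6.2.

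The gene rab25 encodes a dehydrin and lies outside the cluster. It had 1523.5 and 1413.8 in F1 roots, 2.2 and 62.2 in C bao roots, and 7.1 and 55.0 in Jamaica roots. The parental replicates were 28.27-fold and 7.75-fold apart, and the lower F1 array was 22.7 times the highest parental one. It rose by 5.25 (SE 0.683, adjusted p = 0.00146), with 6.40 at a constant of 1 and 4.06 at 64. Against a single parent 1 array mattered more: the difference from C bao of 5.30 was 4.25 and 6.35 without C bao root replicates 1 and 2, and that from Jamaica of 5.20 was 4.39 and 6.01 without Jamaica root replicates 1 and 2. RAB16C differed from C bao by 8.76, and by 7.98 to 9.53 when C bao root arrays were left out in turn.

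Dhn1 had signals of 8815 and 10241 in F1 roots, 6845 and 7201 in C bao roots, and 7455 and 6924 in Jamaica roots. Both F1 arrays were above all parental ones, by at least 1.18 times, but the difference of 0.42 did not pass (SE 0.299, adjusted p = 0.511, 95% interval −0.24 to 1.08). It passed when roots were fitted without the leaf arrays (limma adjusted p = 0.0309), where 8.16% of all probe sets passed upward. With median centring of the arrays the difference was 0.17. All 42974 probe sets had a median difference of 0.12 in this comparison, and −0.13 with median centring.

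Against the mid-parent value 5 of 6 dehydrin genes passed upward in F1 roots, where 3.37% of all probe sets tested did so. Against C bao 5 of 6 passed upward (3.49% of all), and against Jamaica 5 of 6 (3.26% of all). These comparisons share the F1 arrays, so they are not separate results. The median difference of the 6 genes was 6.99 against the mid-parent value. The F1 root pair exceeded each parental root array for 6 of 6 genes, as it did for 18.9% of all probe sets. Without both F1 leaf arrays in the fit, an alternative chosen after the data had been seen, 5 of 6 passed in each of these comparisons. Of all probe sets, 4.9%, 5.42% and 4.55% then passed upward against the mid-parent value, C bao and Jamaica. The main fit takes the spread from all groups together, so the gap between the F1 leaf arrays also enters the root SEs. Without those arrays the SE of the root mid-parent difference fell for each dehydrin gene. It fell from 1.30 to 0.987 for RAB21 and from 0.844 to 0.375 for RAB16C. The fits without 1 root array, given next, kept both F1 leaf arrays, whose part in the lost calls was not tested. RAB21 and RAB16B did not pass against C bao without C bao root replicate 2 (differences of 7.91 and 7.79) or without F1 root replicate 1 (8.13 and 7.82). A smaller share of all probe sets passed upward in these fits too. In bulk tissue, more cells of a type and more RNA per cell cannot be told apart.

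**Figure D2:**
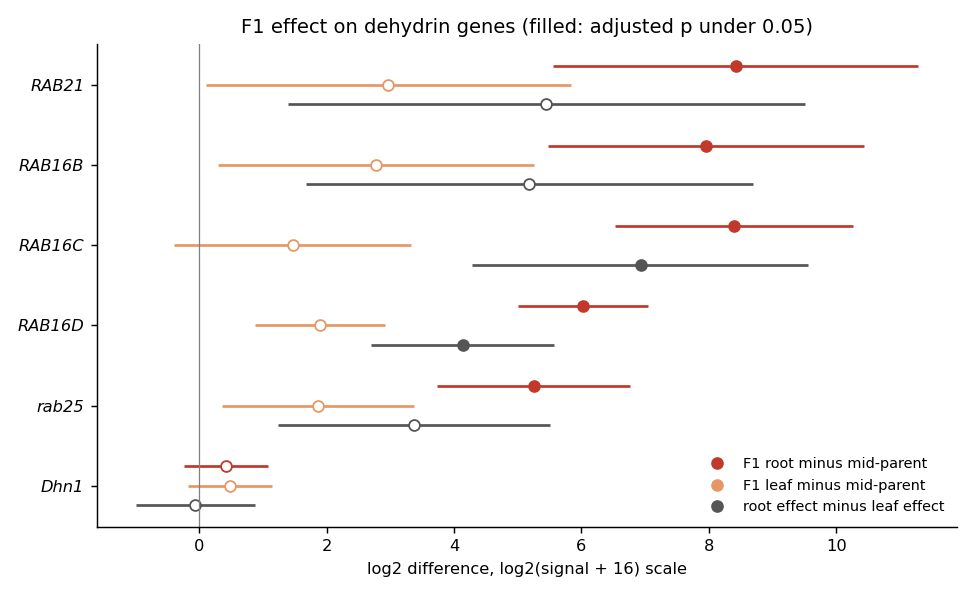
Log2 differences of the dehydrin genes for F1 root against the mid-parent value, F1 leaf against the mid-parent value, and the root difference minus the leaf difference, with 95% intervals. Filled points had an adjusted p under 0.05: 5 in root, 0 in leaf and 2 (RAB16C and RAB16D) for the difference between tissues.

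In leaves the dehydrin genes split the F1 replicates. RAB21 had 1047 on F1 leaf replicate 1 and 25308 on replicate 2, against 1545 and 320 in C bao leaves and 204 and 1658 in Jamaica leaves. Replicate 1 thus lay within the parental range and replicate 2 was 15.3 times the highest parental leaf array. RAB16B had 104 and 5799 in F1 leaves, 272 and 78.7 in C bao leaves, and 58.4 and 95.3 in Jamaica leaves. RAB16C had 122 and 2232 in F1 leaves, 136 and 120 in C bao leaves, and 315 and 228 in Jamaica leaves. For these genes replicate 2 was 21.4 and 7.09 times the highest parental leaf, while replicate 1 lay within the parental range.

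The other genes showed smaller gaps in the same direction. RAB16D had 40.7 and 172.6 in F1 leaves, 29.0 and 5.6 in C bao leaves, and 7.9 and 9.8 in Jamaica leaves. It was the 1 gene of 6 with both F1 leaf arrays above all parental leaf arrays, which 6.15% of all probe sets showed. The gene rab25 had 86.9 and 383.7 in F1 leaves, 110.9 and 93.0 in C bao leaves, and 13.6 and 7.1 in Jamaica leaves. Dhn1 had 6101 and 11732 in F1 leaves, 7046 and 5031 in C bao leaves, and 4358 and 8786 in Jamaica leaves. F1 leaf replicate 2 was above all parental leaf arrays for each of the 6 genes, by 1.34 to 21.4 times. The share of all probe sets with this single array above all parental leaf arrays was not counted.

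How near F1 leaf replicate 2 came to the F1 roots differed between genes. It reached 69.7% of the F1 root mean for RAB21, 34.6% for RAB16B, 26.1% for rab25, 14.5% for RAB16C and 0.632% for RAB16D, whose leaf signals were low on every array. For Dhn1 it stood at 123%. The gap between the F1 leaf arrays was 55.9-fold for RAB16B, and as large or larger for 0.0163% of all probe sets. Replicate 2 exceeded replicate 1 by more than 2-fold for 5 of 6 genes, beside 9.50% of all probe sets. The gap was 24.2-fold for RAB21 (0.0442%), 18.3-fold for RAB16C (0.0605%), 4.42-fold for rab25 (1.11%), 4.24-fold for RAB16D (1.98%) and 1.92-fold for Dhn1 (10.6%).

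Against the mid-parent value 0 of 6 dehydrin genes passed in F1 leaves with limma, where 0.982% of all probe sets passed upward and 0.233% downward. At an unadjusted p under 0.05 there were 4: RAB21, RAB16B, RAB16D and rab25. Their differences were 2.97 (SE 1.30, adjusted p = 0.381), 2.77 (SE 1.12, adjusted p = 0.34), 1.89 (SE 0.460, adjusted p = 0.0929) and 1.87 (SE 0.683, adjusted p = 0.285). RAB16C differed by 1.47 (adjusted p = 0.519) and Dhn1 by 0.48 (adjusted p = 0.556). None passed against C bao leaves (0 of 6 and 1 at an unadjusted p under 0.05, with 0.889% of all passing upward) or Jamaica leaves (0 of 6 and 3 at an unadjusted p under 0.05, with 3.34%). The nearest to the threshold were RAB16D and rab25 against Jamaica, with 2.06 (adjusted p = 0.0515) and 2.96 (adjusted p = 0.0579).

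The leaf values rested on which F1 array was used. Without F1 leaf replicate 1, 4 of 6 genes passed against the mid-parent value: RAB21 at 5.26, RAB16B at 5.57, RAB16C at 3.48 and RAB16D at 2.76. In that fit 1.92% of all probe sets passed upward. Without replicate 2, 0 of 6 passed, and the differences were 0.68, −0.03, −0.55 and 1.03 for the same genes, with 2.7% of all probe sets passing upward. In these fits the remaining F1 leaf array is assumed to vary like the other groups. Markers of dividing cells ran the other way between the F1 leaf arrays: 6 of 6 were lower on replicate 2, none of them at 0, with a summed signal of 682 on replicate 2 and 6388 on replicate 1. That sum was 4914 and 6882 for C bao leaves, and for Jamaica leaves it was 813 and 1089.6. Of the leaf markers 6 of 6 were higher on F1 leaf replicate 2, with a summed signal of 140060.5 against 97934 on replicate 1, and C bao leaves had 123532 and 153254, Jamaica leaves 216609.8 and 191786. The part of either in the dehydrin values was not tested.

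**Figure D3:**
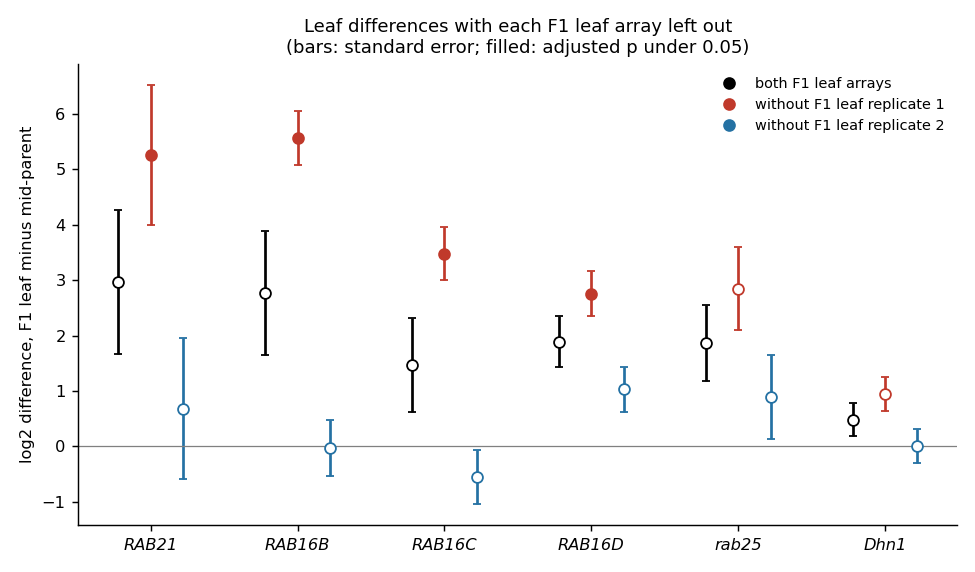
Log2 difference of F1 leaf minus mid-parent for each dehydrin gene with both F1 leaf arrays, without replicate 1 and without replicate 2. Bars are standard errors and filled points passed at an adjusted p of 0.05. With replicate 2 as the lone F1 leaf array 4 genes passed, and with replicate 1 none did (0 of 6).

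The F1 effect was larger in roots than in leaves for RAB16C, by 6.93 (SE 1.19, adjusted p = 0.0234), and for RAB16D, by 4.14 (SE 0.650, adjusted p = 0.0159). These were 2 of 6 genes, where 0.679% of all probe sets passed in this direction. RAB21 (5.45, adjusted p = 0.217), RAB16B (5.18, adjusted p = 0.173) and rab25 (3.38, adjusted p = 0.145) did not pass, and Dhn1 differed by −0.06 (adjusted p = 0.97). The parental leaf signals of RAB16D were all below the threshold of 32.2, and its difference was 3.25 (adjusted p = 0.167) with a constant of 1 and 4.79 with 64. Without F1 leaf replicate 2 all but Dhn1 passed, 5 of 6, where 1.63% of all probe sets passed upward. Without F1 root replicate 1, F1 root replicate 2 or C bao root replicate 2, no dehydrin gene passed. A smaller share of all probe sets passed upward in these fits too. The RAB16C difference was then 6.95, 6.9 and 6.54, and that of RAB16D 4.28, 4.0 and 3.97.

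The parental cultivars differed in 1 dehydrin gene in roots. RAB16D, with the values given above, was higher in C bao than in Jamaica roots by 2.37 (SE 0.531, adjusted p = 0.0281), where 4.70% of all probe sets differed. The call was lost without any 1 root array (adjusted p from 0.0598 to 0.202). The other 5 differences lay between −0.73 and 1.05. In leaves 0 of 6 passed with limma, 1 at an unadjusted p under 0.05, where 11.9% of all probe sets passed. The 2 C bao leaf arrays were above both Jamaica leaf arrays for rab25, by 2.17 (SE 0.789, adjusted p = 0.104). The rab25 difference passed without both F1 leaf arrays in the fit (limma adjusted p = 0.0491), where 19.4% of all probe sets passed. RAB16C was separate the other way, with both Jamaica leaf arrays above both of C bao (−0.99, SE 0.974, limma adjusted p = 0.569). The share of all probe sets with parental leaves so separated was not counted.

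In the parents the genes also differed in where they had signal, although root and leaf samples differ in age and no test was made. RAB16D had 144 to 1175 on the 4 parental root arrays and 5.6 to 29.0 on the 4 parental leaf arrays. RAB16C ran the other way, with 4.8 to 52.8 in roots and 120 to 315 in leaves. RAB21 had 5.6 to 229.7 in roots and 204 to 1658 in leaves, which overlap. RAB16B had 43.8 to 59.6 in roots and 58.4 to 272 in leaves, also overlapping. For rab25 the ranges were 2.2 to 62.2 and 7.1 to 110.9. Of the 4 neighbouring genes, RAB16D alone had its parental root arrays all above its parental leaf arrays.

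Ordered by mean log2 signal, F1 roots came first for each of the 6 genes, and their arrays overlapped those of the next group only for Dhn1. The share of all probe sets with F1 roots first, or separate from the next group, was not counted. The next group was F1 leaves for RAB21, RAB16B, RAB16C, rab25 and Dhn1, and C bao roots for RAB16D. F1 leaves overlapped the group after them in each of the 5 genes for which they were second. For RAB21 the order went on with C bao leaves, Jamaica leaves, C bao roots and Jamaica roots, of which the leaf pair overlapped, as did the root pair. Dhn1 had no neighbouring groups that were separate: from F1 roots to C bao leaves the group means spanned 9528 to 6038 and each group overlapped the next.

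Other probe sets of the same genes gave 3 further readings. The second probe set of RAB21, of a class that can share its probes with related transcripts, had 23744 and 26975 in F1 roots, 193 and 127 in C bao roots, and 82.1 and 190.0 in Jamaica roots. It rose by 7.34 (SE 0.941, adjusted p = 0.00134). In F1 leaves it stood at 806 and 12251.5, so the gap between those arrays was seen again. The other Dhn1 probe sets were dim, with 184 to 192 and 137 to 153 in F1 roots, 144 to 208 and 140 to 159 in C bao roots, and 111 to 132 and 171 to 221 in Jamaica roots. Neither passed in roots (0.34, adjusted p = 0.683, and −0.21, adjusted p = 0.881). On both of them every leaf array (4.2 to 60.6) lay below every root array, which the bright Dhn1 probe set did not show.

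The wider ABA pathway was read from name lists, on the brightest probe set of each gene. Among all probe sets 3.37% passed upward and 1.69% downward in F1 roots, and the number of genes read per list was small. The list of further LEA and seed maturation genes had 3 genes, of which 2 rose. At an unadjusted limma p under 0.05 there were 3 of 3, all higher, against 7888 of 42974 probe sets in either direction. Both F1 root arrays were above all parental ones for 3 of 3, beside 18.9% of all probe sets. PM1 rose by 6.73 (SE 0.40, adjusted p = 3.02e-05), with 19208 and 17869.7 in F1 roots, 138 and 95.8 in C bao roots, and 264 and 178 in Jamaica roots. It encodes a membrane protein of the AWPM-19 family and not an LEA protein. Emp1, the gene of an Em-type LEA protein of the embryo, rose by 5.72 (SE 0.456, adjusted p = 8.42e-05). LEA3 did not pass (4.54, SE 1.60, adjusted p = 0.154). Its signals were 15512 and 14656 in F1 roots, 1219 and 678 in C bao roots, and 227 and 841 in Jamaica roots. In leaves LEA3 had the dehydrin pattern, with 50.4 on F1 leaf replicate 1, 13055 on replicate 2, 286 and 19.6 on the C bao arrays, and 78.8 and 86.8 on those of Jamaica. PM1 and Emp1 had smaller gaps. PM1 had 103 and 341 in F1 leaves and at most 328 in parental leaves, on Jamaica leaf replicate 2. Emp1 had 247 and 773 in F1 leaves and at most 625 in parental leaves, on the same Jamaica array.

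Of the genes that act on ABA itself, those for its breakdown rose. ABA8OX1, which encodes an ABA 8'-hydroxylase, the enzyme that starts ABA breakdown, had 4732 and 5712 in F1 roots, 1109.5 and 825 in C bao roots, and 965 and 1038 in Jamaica roots. It rose by 2.39 in roots (SE 0.210, adjusted p = 0.000147) and by 1.69 in leaves (SE 0.210, adjusted p = 0.00373). In leaves its signals were 4631 and 5161.5 in F1, 830.1 and 1179 in C bao leaf, and 2764 and 1883 in Jamaica, so both F1 leaf arrays were high. ABA8OX2, of the same family, rose by 1.36 in roots (SE 0.247, adjusted p = 0.00973), which made 2 of 2 in roots and 1 of 2 in leaves. ZEP, zeaxanthin epoxidase of ABA synthesis, did not pass in roots (0.30, adjusted p = 0.681), nor did the receptor gene PYL5 (−0.18, adjusted p = 0.682), each the only gene read on its list.

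The signalling genes were read next. Of 7 ABA phosphatase genes 1 rose in roots, PP2C30 by 2.01 (SE 0.496, adjusted p = 0.0444), and the list median was 1.05. At an unadjusted p under 0.05 there were 5 of 7, all higher, against 7888 of 42974 probe sets in either direction. Both F1 root arrays were above all parental ones for 6 of these 7 genes, beside 18.9% of all probe sets. Of 10 SnRK2 kinase genes 0 rose and 2 fell, SAPK3 by 0.86 (SE 0.156, adjusted p = 0.00963) and SAPK5 by 0.65 (SE 0.160, adjusted p = 0.0424). Among 6 transcription factor genes 0 passed in roots with limma, and 2 had an unadjusted p under 0.05. HOX24 and HOX22, of the homeodomain leucine zipper family, differed by 1.98 (adjusted p = 0.0839) and 1.59 (adjusted p = 0.114). TRAB1, a basic leucine zipper factor that binds ABA response elements, differed by 0.22 (adjusted p = 0.452). In leaves 0 of 3 LEA list genes, 0 of 7 phosphatase, 0 of 10 kinase and 0 of 6 factor genes passed with limma, against 1, 1, 2 and 1 at an unadjusted p under 0.05.

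DREB factors act in an ABA-independent branch of the cold and drought response. Of 7 tested, 4 rose in F1 roots: DREB1A by 4.91 (SE 0.301), DREB1B by 4.76 (SE 0.303), DREB1E by 3.53 (SE 0.612) and, named after its value was seen, DREB1G by 3.0 (SE 0.406). In leaves 3 of 7 rose, and there DREB1B had 3176 and 4028 on the F1 arrays, 333 and 291 on the C bao arrays, and 431 and 825 on those of Jamaica. Both F1 leaf arrays were thus above all parental leaf arrays for DREB1B, as they were for RAB16D and not for RAB21, RAB16B or RAB16C.

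**Figure D4:**
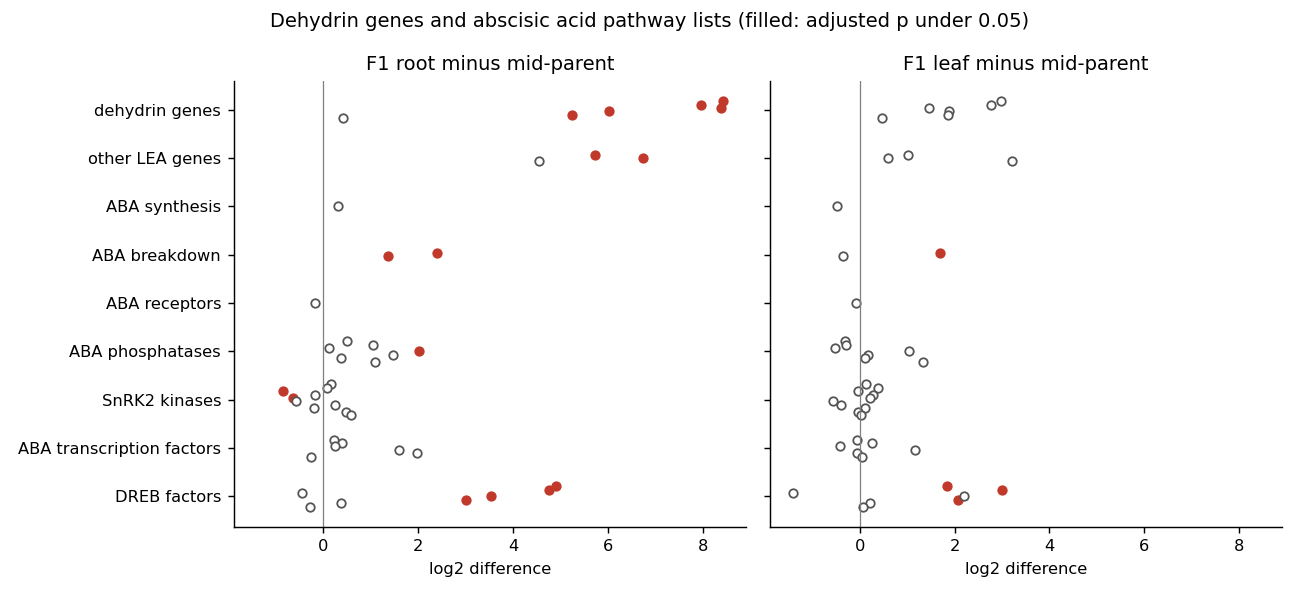
Log2 differences of F1 root and F1 leaf against the mid-parent value for the dehydrin genes and for each list of the ABA pathway and DREB factors, 1 point per gene. Filled points passed at an adjusted p of 0.05, among them 5 of 6 dehydrin genes in root and 0 of 6 in leaf.

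Seed storage and tissue markers were set beside the root result. Of 6 seed marker genes found, 4 passed the signal filter and 0 of these passed the test in roots (1 at an unadjusted p under 0.05), with a median of −0.24. Their summed signal was 2402 and 2487 in F1 roots, 3840 and 3947 in C bao roots and 1356 and 1175.5 in Jamaica roots, most of it from GLUA2 and a gene matched by the name GLB1, which may not be the seed globulin. GLUA1, a glutelin gene, was at 0.7 and 81.9 in F1 roots, and no marker was at 0. Against the mid-parent value 3 of 6 leaf markers fell in F1 roots, where 1.69% of all probe sets passed downward. Against C bao roots 6 of 6 leaf markers were lower, and against Jamaica roots 0 of 6. Of 3 root markers 2 fell against the mid-parent value, NRT2.3 by 3.20 and PHT1-2 by 1.17. Against C bao roots 1 root marker was lower, and against Jamaica roots 2. The root markers summed to 2924 and 3023 in F1 roots, 8695.5 and 9978 in C bao roots, and 7401 and 7926 in Jamaica roots. The leaf markers summed to 3818 and 7308 in F1 roots, 15273 and 18437 in C bao roots, and 6372 and 5755 in Jamaica roots. Of 6 dividing-cell markers 0 passed, and 0 at an unadjusted p under 0.05, with sums of 10751 and 10175 in F1 roots, 9069.6 and 6889.6 in C bao roots, and 7963 and 10665 in Jamaica roots. The part of these markers in the dehydrin differences was not tested.

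The probe sets most like the dehydrin genes were found by Pearson correlation with the mean of the 6 genes, each centred, over the 12 arrays. These arrays fall into few distinct levels, with the F1 roots far above the rest, so the coefficients are descriptions. Of 42968 other probe sets, 13 had r above 0.95, and 1 of these had an informative gene name. That was GDH2, a glutamate dehydrogenase gene (r = 0.968), with 1862 and 2037 in F1 roots, 132 and 109.5 in C bao roots and 138 and 172 in Jamaica roots. In leaves it had 361 and 604 in F1, 167 and 151.5 in C bao, and Jamaica had 129 and 135. Of the 10 named probe sets most alike, 3 were of GDH2.

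The others were OsTIP3 (r = 0.927), a tonoplast water channel gene, LTP-2 (0.895), PDHE1-A (0.892), a pyruvate dehydrogenase subunit gene on chromosome 6, and the phosphatase gene OsPP2C59 (0.891). PM1 (listed as OsPM19L1, 0.886), Emp1 (listed as EM, 0.881) and the metallothionein gene MT-2 (0.872) completed them. OsPP2C59 had 998 and 723.5 in F1 roots, 35.3 and 71.4 in C bao roots and 9.3 and 35.9 in Jamaica roots. It also had the leaf gap, with 98.0 on F1 leaf replicate 1, 734.5 on replicate 2, 149 and 114 on the C bao arrays, and 134 and 159 on those of Jamaica. LTP-2 showed it as well, with 10.7 and 287.9 in F1 leaves, 28.8 and 28.4 in C bao leaves and 71.7 and 68.7 in Jamaica leaves. These probe sets were picked for likeness over arrays that include the F1 leaves, so the shared gap is not a separate result. The GDH2 probe sets of lower r ran the other way, with 626 and 583, and 2535 and 1996.5 in F1 leaves. All others of the 10 were higher on replicate 2. None of the 10 was among the 10 most alike by Spearman correlation (0 shared), which weighs the order of the low arrays as much as the high ones.

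**Figure D5:**
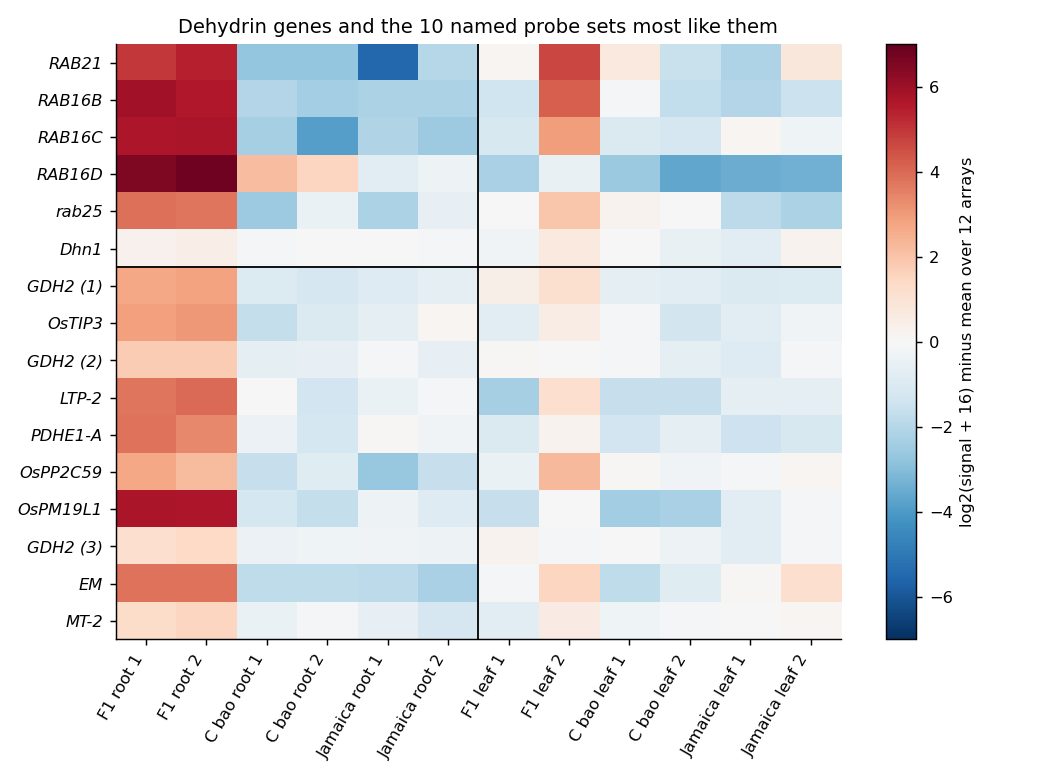
Log2(signal + 16) of the 6 dehydrin genes (above the line) and the 10 named probe sets most like them, each minus its mean over the 12 arrays, with root arrays on the left and leaf arrays on the right. The 3 GDH2 rows are its 3 probe sets. F1 roots are high in every row, least so for Dhn1, and F1 leaf replicate 2 exceeds each other leaf array by more than 1 for RAB21, RAB16B, RAB16C, RAB16D, rab25, LTP-2 and OsPP2C59.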

How the data were processed

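The authors' deposited values are intensity values on a linear scale from MAS5, per the submitters' processing notes; RNA was extracted with RNeasy columns per the labels' protocols. MAS5 version, detection calls, growth conditions and hybridisation dates are not given in the sources used here. Columns were matched to samples by accession.

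Of 57381 probe sets, 123 were controls and not used. Each array was multiplied so that its 2% trimmed mean became 500, and 16 was added before log2. Probe sets stayed in when their mean in at least 1 of 6 groups exceeded the average 40th percentile (5.59, a signal of 32.2), which left 42974 of 57258. limma 3.58.1 in R 4.3.3 fitted 6 group means to all 12 arrays with a trended variance (6 residual and 4.581 prior degrees of freedom). The Benjamini-Hochberg method at 0.05 ran over all kept probe sets within each of 9 comparisons. Scripts were tested on simulated data. Figures used Python 3.11.15.

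Names came from the platform annotation (22436 probe sets with 1 gene, 95 with several, 34727 with none) and a RefSeq gene table, where all 17905 genes were found. Of 140 names on 13 lists, 59 genes could be used, and the list of other dehydrins held none beyond Dhn1. Named genes were the 6 dehydrin genes, up to 3 each way per list and the 10 probe sets most alike. LEA3, ZEP, PYL5, HOX24, HOX22, TRAB1 and DREB1G fall outside this rule and were named after their values were seen. The marker genes RBCS, CASP1, GLUA1, GLUA2 and GLB1 fall outside it too. The genes, lists and rules were chosen with earlier results of these data known. Promoter and protein sequences were not used here, so the planned motif searches were not run. Alternatives were other scalings, constants of 1 and 64, other filters, moderation and array weights, each tissue alone, a replicate block and leaving out each array.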

Additional observations from a re-analysis of the deposited data

Results flagged for a closer look

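The F1 effect differed between root and leaf for RAB16C and RAB16D by the test of the difference itself. For RAB16C the root effect exceeded the leaf effect by 6.93 (limma adjusted p = 0.0234), and this was 4.91 and 8.94 without F1 leaf replicates 1 and 2, with an adjusted p between 0.000202 and 0.145 over all alternatives. For RAB16D it was 4.14 (limma adjusted p = 0.0159), and 3.27 and 5.0 without the same arrays, with an adjusted p between 0.000642 and 0.167. No explanation was tested.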

How the results depend on the processing

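With 2 arrays per group the number of calls moved with the array left out, and the cause was not tested. Leaving out each array in turn gave 4 to 5 dehydrin genes called for F1 root against the mid-parent value, 3 to 5 against C bao and 4 to 5 against Jamaica. It gave 0 to 4 for F1 leaf against the mid-parent value, C bao and Jamaica alike, 0 to 1 for C bao against Jamaica in root and in leaf, and 0 to 5 for the root minus leaf difference.

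The 1 call of C bao against Jamaica roots became 0 with a constant of 1, without the trend and with the replicate block. The 2 calls of the root minus leaf difference became 1 with a constant of 1, without the trend, with robust moderation and with the replicate block, and 3 with a constant of 64, where rab25 passed (2.83, adjusted p = 0.0354). For F1 root against C bao the 5 calls became 4 with robust moderation, where RAB21 had an adjusted p of 0.0536. With each tissue fitted alone, Dhn1 also passed against the mid-parent value and C bao, which made 6 calls in each. In those root fits 8.16% and 9.11% of all probe sets passed upward. For F1 leaf against Jamaica the 0 calls became 1 with quantile scaling, a constant of 1, the 60th percentile filter and robust moderation. For C bao against Jamaica leaves 0 became 1 without both F1 leaf arrays, where 19.4% of all probe sets passed. Replicate numbers recur in each group, but replicate differences correlated between groups only at −0.168 to 0.078, so no pairing was assumed. With the replicate block RAB16D had an adjusted p of 0.0705 for C bao against Jamaica roots and 0.0535 for the root minus leaf difference, and no other number of calls changed. With the Jamaica leaf numbers crossed in the block, added after the data were seen, F1 leaf against Jamaica gave 1 call, C bao against Jamaica leaves 0 and the root minus leaf difference 2.

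Of 1290 single differences under an alternative, 1205 kept direction and side of the threshold, 35 no longer passed, 25 newly passed and 25 changed sign, of which 0 passed under the alternative. Leaving out arrays gave the following ranges where a sign changed. For F1 leaf against the mid-parent value they were −0.03 to 5.57 (RAB16B) and −0.55 to 3.48 (RAB16C). Against C bao they were −0.46 to 5.14 (RAB16B), −0.05 to 3.97 (RAB16C) and −0.19 to 1.77 (rab25), and against Jamaica −1.04 to 2.98 (RAB16C) and −0.05 to 0.95 (Dhn1). For C bao against Jamaica roots they were −0.70 to 2.80 (RAB21), −0.19 to 0.15 (RAB16B), −1.51 to 0.04 (RAB16C), −1.15 to 0.95 (rab25) and −0.09 to 0.02 (Dhn1). For leaves they were −1.21 to 1.72 (RAB21), −0.20 to 0.86 (RAB16D) and −0.56 to 0.45 (Dhn1), and Dhn1 was 0.11 with quantile scaling. For the root minus leaf difference of Dhn1 they were −0.53 to 0.41.

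Over all probe sets, F1 root against the mid-parent value gave 1449 higher and 725 lower, and 1031 higher and 2114 lower with median centring, with a median over all probe sets of 0.12 and −0.13. It gave 4997 calls in all with array weights, 5450 with each tissue alone and 539 to 3378 with each array left out. Without both F1 leaf arrays it gave 3411 calls in all, or 8.07%, of which 4.9% were higher. The Spearman alternative for likeness shared 0 of 10 probe sets.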
